A study of Mus musculus with 6 samples.

Results

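The genes described are 33 glycolysis and hypoxia response genes among the 55450 genes of the deposited tables. They are 16 glycolytic enzymes, 2 glucose transporters, 1 lactate exporter, 3 regulators of glycolytic flux, the oxygen-regulated subunit gene Hif1a and 10 further targets of hypoxia-inducible factor (HIF). Members were taken by symbol among protein-coding genes. Aldoa stands 2 times in the tables, and the entry with more counts was kept. All 33 passed the filter on low counts. The rule used no measured change, but the members were chosen with earlier results of these data known.

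The data are RNA sequencing of 6 tumours grown under the skin of the right flank of C57BL/6 mice from MTE-Ras, a line of mouse tracheal epithelial cancer cells transformed by oncogenic RAS. All tumours are of this single transplanted line, so treated and control tumours carry the same RAS mutation. Controls were 3 tumours injected with phosphate-buffered saline (PBS), and 3 tumours were injected with PV-10, a rose bengal formulation given directly into lesions. No label ties a tumour to a mouse, and p-values measure only the spread between these tumours. Dose, time of collection, sex and age are not given in the sources used here. Of 6 epithelial markers, the keratin genes Krt8 and Krt18 were abundant, at means of 324 and 311 CPM (read counts scaled for library size) in PBS tumours. Epcam and Krt5 were near 0, at means of 0.233 and 0.259 CPM. Krt8 was at a mean of 199 CPM in PV-10 tumours (log2 change -0.71), and Cdh1, the epithelial cadherin gene, at means of 9.27 CPM after PBS and 4.25 CPM after PV-10 with no overlap (log2 change -1.12). Neither was called by edgeR with all tumours and both were called lower without PV-10 tumour 3. These were the only 2 of the 6 with a negative log2 change, and the median of the 6 was 0.47. Krt18 was at a mean of 323 CPM in PV-10 tumours (log2 change 0.05). Krt14, Epcam and Krt5, all scarce, were at log2 changes of 0.89, 1.77 and 1.73. None of the 6 was called higher in either fit. The part of tumour cell content in the members' values was not tested.

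Glycolysis splits glucose into pyruvate, and lactate dehydrogenase then turns pyruvate into lactate, which is exported from the cell. Under low oxygen, prolyl hydroxylases no longer mark the HIF1 alpha protein for destruction, and the stabilised factor binds hypoxia response elements and activates genes for glucose uptake, glycolysis, blood vessel growth, pH control and mitophagy. Oncogenic RAS is also known to raise glucose uptake and glycolytic enzyme expression, so that such tumours commonly carry high levels of these transcripts. HIF1 alpha is controlled chiefly at the protein level, which RNA does not measure.

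Total counts ran from 36730318 to 98717951 per tumour, and PV-10 tumour 2 had the lowest. PV-10 tumour 3 stood apart from its group: its log2 CPM over all tested genes correlated at 0.909 to 0.930 with the PBS tumours and at 0.822 to 0.874 with the other PV-10 tumours. PV-10 tumours 1 and 2 correlated at 0.881, close to the 0.874 of PV-10 tumours 1 and 3. Results without PV-10 tumour 3 are given beside those with all tumours. The tumour was singled out from the same expression values that are tested. The p-values without it are thus conditional on that choice and are not independent support. CPM are scaled by TMM, a correction for library composition, and serve to compare 1 gene between tumours. TPM are corrected for transcript length and serve to compare genes. In bulk tumour RNA, fewer cells of a type and less RNA per cell cannot be told apart.

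The members' promoters were searched for a sequence feature that the rule did not use, although HIF targets as a class are known for it. The core of the hypoxia response element can be written ACGTG or GCGTG, and either was searched on both strands in the 250 bases before each start site (RefSeq, build GRCm38.p6, the same assembly as mm10). ACGTG also lies within the E-box CACGTG, which reads the same on both strands and so counts as 2 matches. RefSeq windows were found for 31 of the 33 members, and 24 of the 31 held at least 1 core, against 38.6% of the 32851 windows of all genes. The 2 sets are unlike. For each member 1 window was taken, the nearest to the annotated gene start. The windows of all genes were not selected by gene type, expression or start site. By role, 8 of 9 HIF targets and 10 of 16 enzymes held a core. A match is a description of the letters and not a site shown to be bound.

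The 4 promoters shown belong to the members at the extremes of the comparison that follows. Ankrd37 and Bnip3 are the HIF targets whose levels were highest in PV-10 relative to PBS tumours, and Hk2 and Vegfa are the enzyme and the HIF target whose levels were lowest. Capitals mark the cores, and each line reads 5′ to 3′ on the gene's strand, which is the minus strand for all 4, at chr8:45999851-46000100 (Ankrd37), chr7:138909507-138909756 (Bnip3), chr6:82774455-82774704 (Hk2) and chr17:46032378-46032627 (Vegfa).
Ankrd37: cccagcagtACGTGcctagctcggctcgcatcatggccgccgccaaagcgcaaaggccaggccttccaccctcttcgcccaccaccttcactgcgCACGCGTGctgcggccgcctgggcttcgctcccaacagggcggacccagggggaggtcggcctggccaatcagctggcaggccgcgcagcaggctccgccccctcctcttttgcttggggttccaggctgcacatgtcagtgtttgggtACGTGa
Bnip3: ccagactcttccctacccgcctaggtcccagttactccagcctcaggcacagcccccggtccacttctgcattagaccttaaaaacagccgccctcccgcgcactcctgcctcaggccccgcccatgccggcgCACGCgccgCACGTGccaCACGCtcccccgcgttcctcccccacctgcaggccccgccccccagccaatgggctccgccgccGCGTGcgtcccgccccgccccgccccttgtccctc
Hk2: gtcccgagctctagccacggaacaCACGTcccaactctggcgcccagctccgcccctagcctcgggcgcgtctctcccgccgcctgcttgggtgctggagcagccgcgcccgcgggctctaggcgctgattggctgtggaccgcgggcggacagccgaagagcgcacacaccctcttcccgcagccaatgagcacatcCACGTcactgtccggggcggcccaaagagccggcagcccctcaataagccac
Vegfa: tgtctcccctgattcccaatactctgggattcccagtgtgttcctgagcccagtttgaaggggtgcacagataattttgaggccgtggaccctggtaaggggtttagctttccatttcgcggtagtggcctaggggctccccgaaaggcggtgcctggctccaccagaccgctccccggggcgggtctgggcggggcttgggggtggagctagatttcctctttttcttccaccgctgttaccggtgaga
The Bnip3 window held 5 cores, counting the E-box as 2, the Ankrd37 window 4 and the Hk2 window 2. The Vegfa window held none within these 250 bases. Cores were thus present in promoters of genes at both ends of the range.

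With all 6 tumours, 0 of the 33 members passed the test, against 5.09% of the 22056 genes tested (1.92% lower, 3.17% higher; edgeR, adjusted p under 0.05, 3 tumours in each group). At an unadjusted p under 0.05 there were 10 members, a share close to the 30% of all genes. DESeq2 on the same tumours called 7 members. It called Hk1, Hk2, Pfkl, Pkm and Vegfa lower, against 5.83% of genes called lower, and Bnip3 and Ankrd37 higher, against 14.6% called higher. The direction was mostly the same across members: 26 of 33 had a negative log2 change, compared with 41.5% of all genes tested, and the median member was at -0.58 where the median gene was at 0.30. The distance depended on which genes were tested. Among genes with a mean count of at least 50, the median gene was at 0.06 and the median member at -0.45. Levels of 6 members in the 3 PV-10 tumours lay wholly below those in the 3 PBS tumours (16.8% of all genes) and those of 1 lay wholly above (22% of all genes).

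Most of the distance came from PV-10 tumours 1 and 2. In 23 of 33 members both of these tumours lay below every PBS tumour, while PV-10 tumour 3 lay within the PBS range for 25 members. The shares of all genes with these patterns were not counted, so neither count can be read as particular to the members. Without PV-10 tumour 3, edgeR called 21 members lower and 1 higher, where 41.4% of 27510 genes tested were called, 16.4% lower and 25% higher. Without any other single tumour 0 members were called, in fits that called at most 5 genes higher and at most 1 lower over all genes tested. PV-10 tumour 3 alone against PBS gave a median of -0.09 over the members, a value from 1 tumour whose spread is taken from the PBS group alone.

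**Figure D1:**
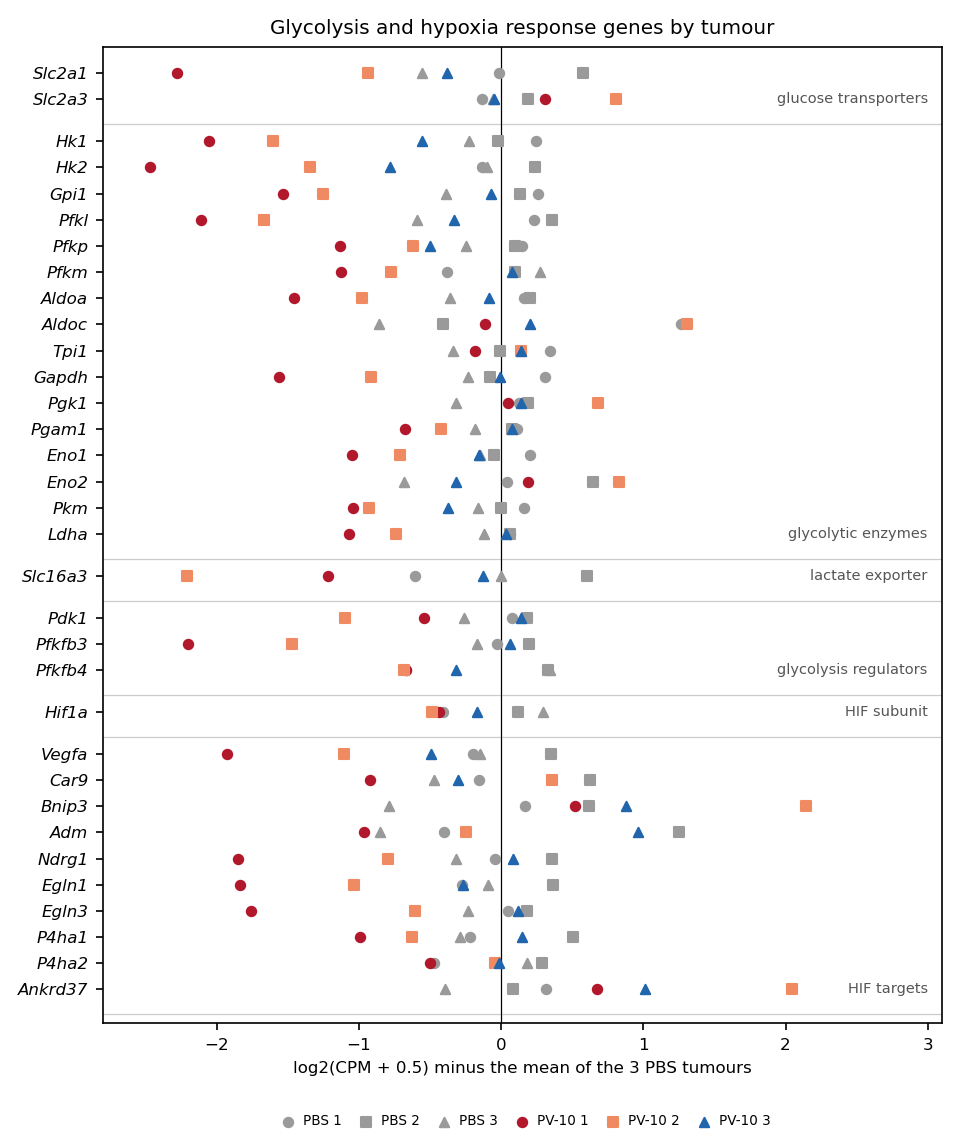
Each row is 1 member and each point 1 tumour, placed by its log2(CPM + 0.5) minus the mean of the 3 PBS tumours (x axis). PV-10 tumours 1 and 2 (red and orange) lie to the left of every PBS tumour (grey) for 23 of 33 members. The share of all genes with this pattern was not counted. PV-10 tumour 3 (blue) mostly lies among the PBS tumours, and Bnip3 and Ankrd37 lie to the right.

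Glucose enters these cells chiefly through facilitative transporters. Slc2a1 (GLUT1), the broadly expressed transporter (ENSMUSG00000028645.11, mm10 chromosome 4, 119108711 to 119137983), was at 109, 165 and 74.9 CPM in PBS tumours 1, 2 and 3, in that order, against 22.4, 57.4 and 84.6 CPM in PV-10 tumours 1, 2 and 3. The first 2 PV-10 tumours lay below all PBS tumours, while the third lay between them. The log2 change was -1.09 (SE 0.48, edgeR adjusted p = 0.161), and -1.55 without PV-10 tumour 3 (edgeR adjusted p = 0.0332). Slc2a3 (GLUT3), a high-affinity transporter prominent in neurons and leukocytes, was at 1.89 to 2.49 CPM in PBS and 2.03 to 4.08 CPM in PV-10 tumours, with overlapping groups (log2 change 0.47, and -0.17 on log2(TPM + 1)). On the TPM scale Slc2a1 made up 97.3 ± 2.10% of the 2 transporters' transcripts in PBS tumours and 92.3 ± 5.26% in PV-10 tumours (mean ± SD, n = 3).

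Hexokinases trap glucose as glucose 6-phosphate, and the forms among the members, Hk1 and Hk2, were among the lowest members. Hk2, the inducible hexokinase that is a classical HIF target (ENSMUSG00000000628.10, mm10 chromosome 6, 82725025 to 82774454), was at 59.0, 76.6 and 60.4 CPM after PBS and 11.3, 25.2 and 37.5 CPM after PV-10. All PV-10 tumours lay below all PBS tumours, including PV-10 tumour 3. The log2 change was -1.40 (SE 0.40, edgeR adjusted p = 0.0632), the most negative of the 33. Hk1, the constitutive hexokinase, was at 259, 214 and 186 CPM after PBS and 52.1, 71.2 and 148 CPM after PV-10, again with no overlap (log2 change -1.28, SE 0.39, edgeR adjusted p = 0.0710). With PV-10 tumour 3 left out, edgeR called both lower, Hk2 at -1.84 (adjusted p = 0.00709) and Hk1 at -1.83 (adjusted p = 0.00113). In every one of the 18 settings tried, both had a negative log2 change, between -2.02 and -0.79 for Hk2 and between -2.15 and -0.56 for Hk1. Hk1 supplied most of this pair's transcripts, 82.2 ± 3.82% of its TPM in PBS and 81.4 ± 1.59% in PV-10 tumours. The balance of the 2 forms thus differed by less than the spread between tumours. Outside the members, Hk3 was at means of 12.1 and 7.04 CPM in PBS and PV-10 tumours (log2 change -0.77). Hkdc1, a scarce hexokinase family gene, was at 0.154 and 2.61 CPM (log2 change 4.06). Neither was called with all tumours. Without PV-10 tumour 3, edgeR called Hk3 lower and Hkdc1 higher.

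Phosphofructokinase commits sugar to glycolysis and exists as liver (Pfkl), platelet (Pfkp) and muscle (Pfkm) forms. Pfkl was at 92.5, 101 and 52.2 CPM after PBS and 17.9, 24.5 and 62.7 CPM after PV-10, where the third exceeded 1 PBS tumour. Pfkp was at 84.2, 81.3 and 63.8 CPM after PBS and 34.25, 49.3 and 53.5 CPM after PV-10, with all PV-10 tumours lower. Their log2 changes were -1.23 (SE 0.48) and -0.74 (SE 0.28), with edgeR adjusted p of 0.119 and 0.108. edgeR called both lower without PV-10 tumour 3, Pfkl at -1.95 (adjusted p = 0.00421) and Pfkp at -0.87 (adjusted p = 0.0233). By TPM the liver form made up 47.0 ± 9.88% and the platelet form 47.9 ± 8.32% of the family in PBS tumours, against 37.3 ± 5.48% and 56.8 ± 6.16% in PV-10 tumours, ranges that overlap. Pfkm remained the minor form at 5.12 ± 2.33% and 5.87 ± 0.700%.

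Pfkm is the phosphofructokinase form of skeletal muscle, and skeletal muscle markers differed between tumours. The summed level of 9 muscle markers was 44.2, 6.61 and 4.25 CPM in PBS and 75.0, 333 and 4.70 CPM in PV-10 tumours. Of the 9, 7 had a positive log2 change and 0 were called, with Myh4 and Pvalb at 0 CPM in PV-10 tumour 3 and in PBS tumour 1. Leaving out PV-10 tumour 3, edgeR called 5 of the 9 higher. Pfkm was at 5.96 to 9.66 CPM after PBS and 3.34, 4.41 and 8.34 CPM after PV-10, lowest in the 2 tumours with the most muscle RNA, and was called lower without PV-10 tumour 3 (log2 change -1.05, edgeR adjusted p = 0.0444). The part of muscle RNA in the enzyme values was not tested.

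The enzymes that interconvert and cleave hexose phosphates were intermediate. Gpi1, glucose 6-phosphate isomerase, was at 480, 440 and 306 CPM after PBS and 139, 169 and 383 CPM after PV-10. Aldoa, the main aldolase, was at 737, 758 and 514 CPM after PBS and 241, 334 and 623 CPM after PV-10. For both, PV-10 tumours 1 and 2 were below all PBS tumours and PV-10 tumour 3 was inside their range, and without the third tumour edgeR called both lower (log2 change -1.41 and -1.22, adjusted p = 0.00429 and 0.00905). Aldoc, the brain-type aldolase, was at 4.71 to 22.2 CPM in PBS and 8.24 to 22.9 CPM in PV-10 tumours. It supplied a small part of aldolase TPM, since Aldoa made up 97.3% to 99.5% of the pair in PBS and 94.7% to 98.4% in PV-10 tumours.

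Lower glycolysis, from triose phosphate to pyruvate, held the most abundant member. Gapdh, glyceraldehyde 3-phosphate dehydrogenase, was at 5571, 4965 and 3963 TPM after PBS and 1001, 1619 and 3717 TPM after PV-10, and made up 65.7 ± 4.13% and 65.4 ± 3.68% of the TPM of the 16 enzymes. In CPM, PV-10 tumours 1, 2 and 3 stood at 33.4%, 52.4% and 98.3% of the PBS mean for this gene, which is often used as a reference for normalisation. Its log2 change was -0.70 (SE 0.40, edgeR adjusted p = 0.271). Without PV-10 tumour 3 it was -1.22 (edgeR adjusted p = 0.0125).

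Pkm, pyruvate kinase, was at 1505, 1345 and 1203 CPM after PBS and 653, 705 and 1037 CPM after PV-10. Eno1, the main enolase, was at 989, 831 and 775 CPM after PBS and 416, 525 and 773 CPM after PV-10. In both genes all PV-10 tumours lay below all PBS tumours, in Eno1 by a narrow margin (775 against 773 CPM). The log2 changes were -0.76 (SE 0.29) and -0.60 (SE 0.31), with edgeR adjusted p of 0.116 and 0.224. Both were called lower by edgeR without PV-10 tumour 3, Pkm at -0.99 (adjusted p = 0.00501) and Eno1 at -0.88 (adjusted p = 0.0129). Ldha, the muscle-type subunit of lactate dehydrogenase, was at 565, 563.6 and 496 CPM after PBS and 257, 323 and 554 CPM after PV-10, with PV-10 tumour 3 inside the PBS range. Its log2 change was -0.52 (SE 0.33, edgeR adjusted p = 0.320), and -0.90 without PV-10 tumour 3 (edgeR adjusted p = 0.00781). Ldha exceeded Ldhb, the heart-type subunit, 50.8, 83.5 and 68.5 times in TPM in PBS and 13.7, 23.8 and 51.02 times in PV-10 tumours.

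For Tpi1, Pgk1 and Pgam1 the groups overlapped. Tpi1, triose phosphate isomerase, was at 197 to 316 CPM in PBS and 219 to 275 CPM in PV-10 tumours (log2 change 0.02, SE 0.28). Pgk1, phosphoglycerate kinase, was at 266, 278 and 196 CPM after PBS and 252, 391 and 269 CPM after PV-10 (log2 change 0.30, SE 0.29). Pgam1, phosphoglycerate mutase, was at 300 to 368 CPM in PBS and 214 to 360 CPM in PV-10 tumours (log2 change -0.31, SE 0.29). In the fit without PV-10 tumour 3, edgeR called Pgam1 lower (log2 change -0.55, adjusted p = 0.0382) and called neither Tpi1 nor Pgk1. The signs of Tpi1 and Pgk1 depended on the scale: on log2(TPM + 1) they were -0.77 and -0.50, and Tpi1 was at -0.0754 with library size alone. Eno2, the neuronal enolase, was at 0.782 to 2.72 CPM in PBS and 1.15 to 3.15 CPM in PV-10 tumours. Processed pseudogenes and near copies exist for several of these enzymes, and the counting shares reads among similar sequences, so exact levels are uncertain; the copies tested, such as Eno1b at means of 16.6 and 14.1 CPM, were far below the parent genes.

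**Figure D2:**
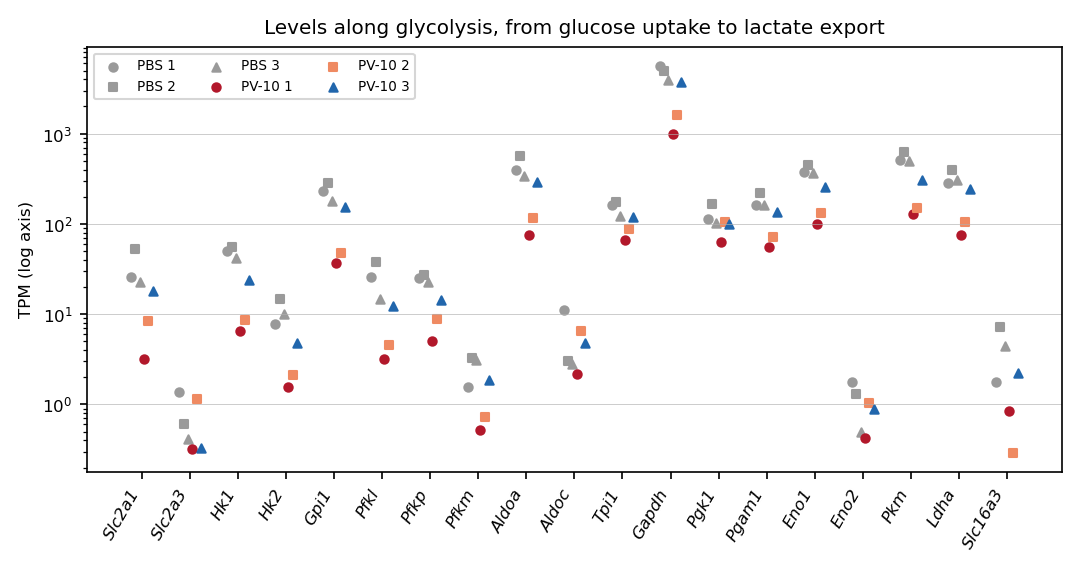
The x axis follows glycolysis from glucose uptake to lactate export, and the y axis is TPM on a log axis, with 1 point per tumour. Gapdh is the highest at every tumour, and PV-10 tumours 1 and 2 lie lowest at most steps, with Pgk1 and Tpi1 the closest to their PBS values among abundant enzymes.

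Lactate leaves glycolytic cells through MCT4, encoded by Slc16a3. It was at 6.43, 15.5 and 10.04 CPM after PBS and 4.045, 1.78 and 9.14 CPM after PV-10 (log2 change -1.09, SE 0.56, edgeR adjusted p = 0.222). PV-10 tumours 1 and 2 lay below the PBS range and the third lay within it. Without the third tumour, edgeR called Slc16a3 lower (log2 change -1.86, adjusted p = 0.0277).

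The 3 regulators set the pace of glycolysis and the fate of pyruvate. Pfkfb3 makes fructose 2,6-bisphosphate, an activator of phosphofructokinase, and was at 25.3, 29.7 and 22.9 CPM after PBS and 5.21, 9.01 and 27.0 CPM after PV-10. The gap between PV-10 tumour 3 and the other PV-10 tumours was wide here, at 104% of the PBS mean against 20.1% and 34.7%. Pdk1, the kinase that blocks pyruvate entry into the mitochondrial cycle, was at 53.4, 57.5 and 42.2 CPM after PBS and 34.5, 23.4 and 55.8 CPM after PV-10. Pfkfb4, a relative of Pfkfb3, was at 4.24 to 9.05 CPM in PBS and 4.19 to 5.53 CPM in PV-10 tumours. Without PV-10 tumour 3, edgeR called Pfkfb3 and Pdk1 lower (log2 change -1.87 and -0.81) and did not call Pfkfb4. With all tumours their log2 changes were -0.91 and -0.43.

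Hif1a itself (ENSMUSG00000021109.13, mm10 chromosome 12, 73901375 to 73947530) was measured beside the genes it controls. It was at 97.3, 141 and 159 CPM after PBS and 95.7, 92.4 and 115 CPM after PV-10, with overlapping groups (log2 change -0.39, SE 0.28, edgeR adjusted p = 0.375). Without PV-10 tumour 3 it was still not called (edgeR adjusted p = 0.116). Whether its change differed from that of its targets was not tested.

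HIF targets outside glycolysis lay on both sides of 0. Of the 10, 8 had a negative and 2 a positive log2 change, and the range from -1.09 to 1.45 was wider than that of the enzymes, -1.40 to 0.30. The 2 on the positive side, Bnip3 and Ankrd37, were also positive in each of the 18 settings tried.

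Vegfa, the angiogenic growth factor (ENSMUSG00000023951.17, mm10 chromosome 17, 46016993 to 46032369), was at 144, 210 and 148 CPM after PBS and 42.9, 76.5 and 117 CPM after PV-10. It was the only HIF target whose PV-10 tumours all lay below the PBS tumours. The log2 change was -1.09 (SE 0.38, edgeR adjusted p = 0.0914). As a share of the 10 targets' TPM, Vegfa held 28.9%, 31.1% and 36.8% in PBS and 13.1%, 11.1% and 20.6% in PV-10 tumours, and these ranges did not overlap. Endothelial markers, summed over 6 genes, were at 196, 439 and 375 CPM after PBS and 140, 115 and 364 CPM after PV-10. Of these 6, 4 had a negative log2 change and 0 were called, and none was at 0. When PV-10 tumour 3 was left out, edgeR called 3 of the 6 lower (Pecam1, Cdh5 and Kdr) and called Vegfa lower as well (log2 change -1.49, adjusted p = 0.00904). The part of endothelial RNA in the Vegfa value was not tested.

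The oxygen sensors and matrix enzymes among the targets had negative log2 changes. Egln1 (PHD2), the main prolyl hydroxylase acting on HIF1 alpha, was at 50.1, 78.3 and 56.97 CPM after PBS and 16.6, 29.3 and 50.3 CPM after PV-10 (log2 change -0.95, SE 0.40). Egln3 (PHD3), a hydroxylase that HIF itself induces, was at 46.8, 51.5 and 38.6 CPM after PBS and 13.1, 29.5 and 49.2 CPM after PV-10 (log2 change -0.58, SE 0.42). In each gene the third PV-10 tumour lay within the PBS range and the other PV-10 tumours below it. P4ha1, a collagen prolyl hydroxylase subunit, was at 83.7 to 145 CPM in PBS and 51.1 to 113 CPM in PV-10 tumours, and P4ha2, its relative, at 13.5 to 23.2 and 13.3 to 18.7 CPM. Ndrg1, a stress-responsive gene, was at 87.4, 115 and 72.1 CPM after PBS and 24.6, 51.6 and 95.2 CPM after PV-10. Without PV-10 tumour 3, edgeR called Egln1, Egln3, Ndrg1 and P4ha1 lower, at -1.43, -1.10, -1.27 and -0.85, and did not call P4ha2. With all tumours Ndrg1 was at -0.68 and P4ha1 at -0.46.

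Car9 and Adm, which are strongly induced by low oxygen in many tumours, were scarce here. Car9, the membrane carbonic anhydrase that controls pH, was at 1.53 to 3.84 CPM in PBS and 0.981 to 3.09 CPM in PV-10 tumours. Adm, the vasodilator adrenomedullin, was at 1.94, 7.21 and 1.29 CPM after PBS and 1.15, 2.22 and 5.78 CPM after PV-10. In both genes the groups overlapped, and neither was called with or without PV-10 tumour 3.

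Bnip3, a mitochondrial outer membrane protein that promotes mitophagy (ENSMUSG00000078566.8, mm10 chromosome 7, 138890836 to 138909519), was on the positive side. It was at 56.6, 77.6 and 28.9 CPM after PBS and 72.2, 224 and 92.7 CPM after PV-10. PV-10 tumour 2 was far above the rest, and PV-10 tumour 1 lay below PBS tumour 2. The log2 change was 1.25 (SE 0.49, edgeR adjusted p = 0.122). Without PV-10 tumour 2 the log2 change of Bnip3 was 0.59, and on log2(TPM + 1) with all tumours it was 0.47. As a share of the 10 targets' TPM, Bnip3 held 13.6% to 22.6% in PBS and 33.5% to 60.4% in PV-10 tumours, without overlap. Such a share also rises where the other targets are lower. Its TPM overlapped, at 38.1, 71.2 and 25.2 after PBS and 31.6, 95.3 and 61.6 after PV-10.

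Ankrd37, an ankyrin repeat protein gene activated by HIF1 (ENSMUSG00000050914.16, mm10 chromosome 8, 45996902 to 46005707), was at 4.68, 3.91 and 2.66 CPM after PBS and 6.16, 16.7 and 7.91 CPM after PV-10. On this scale every PV-10 tumour, the third included, exceeded every PBS tumour. In TPM the groups overlapped, at 4.41, 5.26 and 3.07 after PBS and 3.39, 9.85 and 6.32 after PV-10. The log2 change was 1.45 (SE 0.43, edgeR adjusted p = 0.0661), and without PV-10 tumour 3 it was 1.60 (edgeR adjusted p = 0.0308), the 1 member called higher in that setting. Without PV-10 tumour 2 it was 0.89, and on log2(TPM + 1) it was 0.45, neither called. Once trends with transcript length and GC were taken out of each library, Ankrd37 stood at 0.63 and Bnip3 at 0.17. On that scale the median of all genes tested was -0.30, against 0.30 as fitted, and 2 of 22056 genes were called in all.

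Enzymes and HIF targets were then set side by side. The median log2 change was -0.65 over the 16 enzymes and -0.40 over the 10 targets, a difference of -0.25, beside 0.30 over all genes tested. By tumour, the enzyme median relative to the PBS mean was -1.10, -0.76 and -0.08 in PV-10 tumours 1, 2 and 3, and the target median -0.98, -0.43 and 0.10. The enzymes were thus the lower group in each PV-10 tumour, by -0.12, -0.33 and -0.18. Among PBS tumours the same difference was 0.34, -0.27 and 0.06, a spread wider than that among PV-10 tumours. The difference also went to 0.0075 without PV-10 tumour 3. The difference between enzymes and targets was within the spread of the control tumours.

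**Figure D3:**
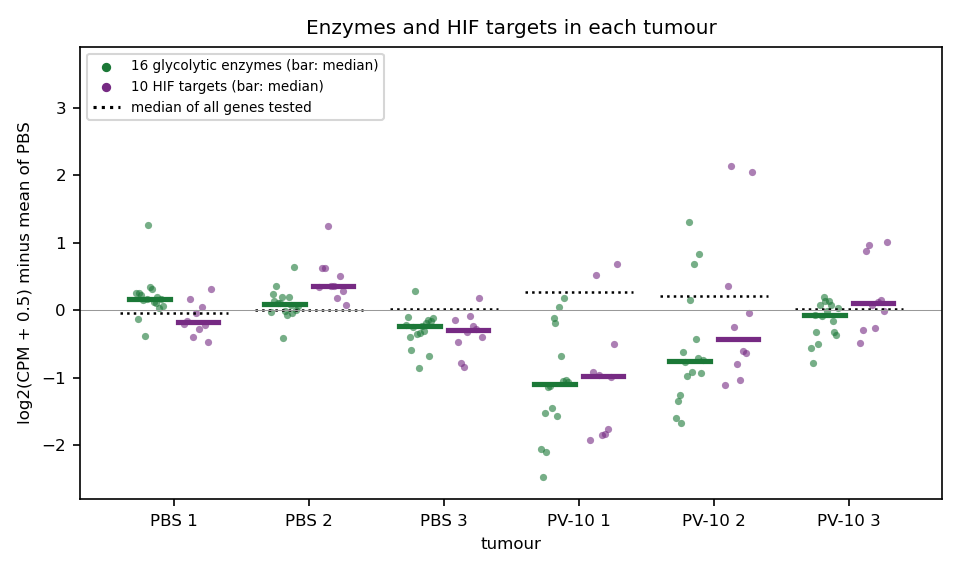
For each tumour (x axis), points are genes at log2(CPM + 0.5) minus the PBS mean (y axis), bars are medians of the 16 enzymes (green) and 10 HIF targets (purple), and dotted lines are medians of all genes tested. Both bars lie near -1 in PV-10 tumour 1 and near 0 in PV-10 tumour 3, and in PV-10 tumours 1 and 2 they lie below the dotted line.

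In summed TPM, the 16 enzymes stood at 7935, 7988 and 6135 in PBS and at 1623, 2467 and 5385 in PV-10 tumours, all of them lower. In summed CPM the groups overlapped, at 10289, 8797 and 7493 in PBS and 3763, 5127 and 8250 in PV-10 tumours. Small noncoding RNAs take up a large part of TPM in these libraries, and protein-coding genes held 42.2% to 48.1% of TPM in PBS and 30.5% to 38.1% in PV-10 tumours. Over protein-coding TPM alone, rescaled to the TPM total, the enzyme sum was 18804, 16608 and 14463 in PBS and 5331, 7770 and 14140 in PV-10 tumours. The 10 HIF targets on that scale summed to 399.8, 708 and 436 after PBS and 204, 497 and 483 after PV-10, and these groups overlapped.

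A second list of hypoxia targets gave a similar spread. Of 28 such genes tested, 2 rose, 0 fell and 26 were not called (edgeR, all 6 tumours, with 3.17% of all genes called higher), and 19 were on the negative side, the median being -0.23. The 2 that rose were Hilpda, a lipid droplet protein gene, from 5.54, 8.13 and 7.97 CPM to 17.4, 17.7 and 17.01 CPM (log2 change 1.27, SE 0.27, edgeR adjusted p = 0.0443), and Higd1a, a mitochondrial inner membrane protein gene, from 8.71, 5.90 and 6.74 CPM to 19.3, 28.9 and 12.97 CPM (log2 change 1.52, SE 0.34, edgeR adjusted p = 0.0451). Hilpda was alike in all 3 PV-10 tumours in CPM. In TPM its groups overlapped, at 4.85, 9.87 and 8.49 after PBS and 8.79, 9.70 and 12.68 after PV-10, while those of Higd1a did not. With length and GC trends removed, Hilpda was at 0.52 and Higd1a at 0.76, neither called. That fit called 2 of 22056 genes and had an all-gene median of -0.30. Next to them stood Fam162a (1.56), which encodes a mitochondrial protein, and Bnip3l (1.05), the mitophagy receptor related to Bnip3, neither of which was called (edgeR adjusted p = 0.0547 and 0.05004) and which were named after their values were seen. At the other end stood Plod1 (-1.11), a collagen lysyl hydroxylase gene, and Vldlr (-0.98), a lipoprotein receptor gene, also named after their values were seen and not called.

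**Figure D4:**
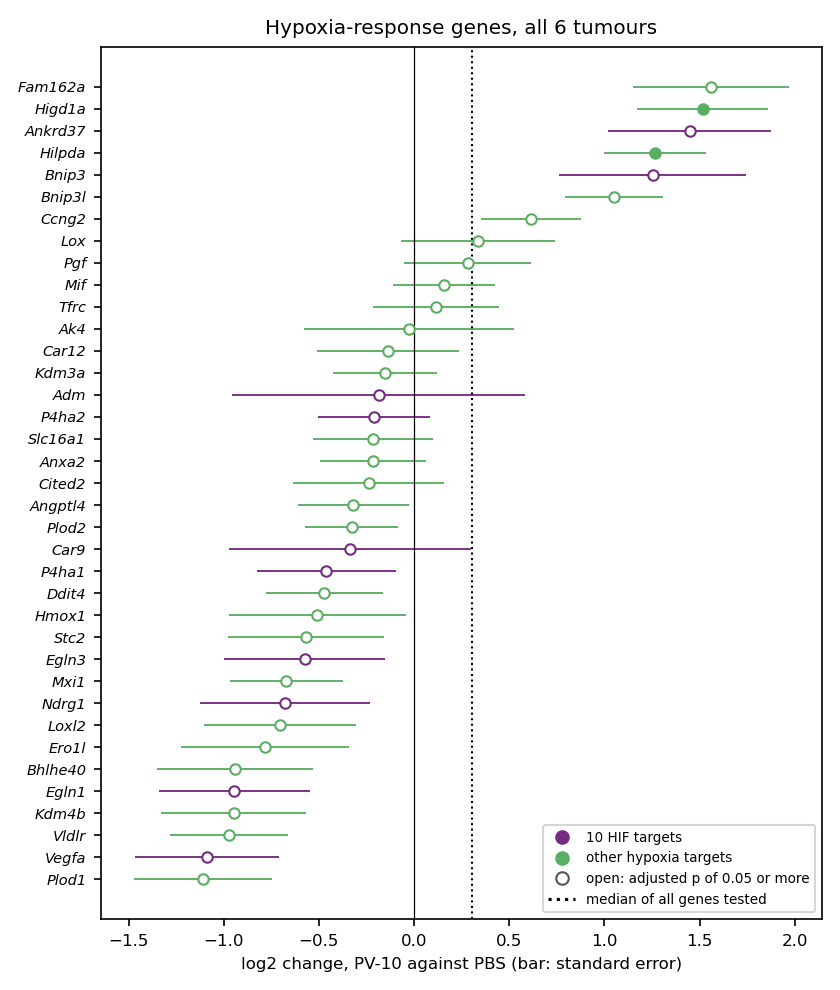
Points are log2 changes of the 10 HIF targets (purple) and of other hypoxia targets (green) with standard errors, x axis in log2 units, filled where the edgeR adjusted p is under 0.05. Hilpda and Higd1a are the filled points, Ankrd37 and Bnip3 lie among the highest, and Vegfa and Plod1 are the lowest.

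Calls in neighbouring pathways are read against the 5.09% of all genes called, 3.17% higher. Of 10 tested HIF subunits and regulators, 1 rose: Eloc, an elongin subunit of the VHL ubiquitin ligase, from 27.5, 22.7 and 24.6 CPM to 93.4, 105 and 38.2 CPM (log2 change 1.66, SE 0.38, edgeR adjusted p = 0.0451). Of 14 genes for pyruvate use, 1 rose: Mpc2, a subunit of the mitochondrial pyruvate carrier, from 18.3, 13.4 and 11.6 CPM to 57.2, 46.4 and 24.9 CPM (log2 change 1.57, SE 0.35, edgeR adjusted p = 0.0451). In both genes PV-10 tumour 3 was the lowest of its group and, in CPM, still above all PBS tumours. In TPM this held for Mpc2 only. Eloc was at 22.2 TPM in PV-10 tumour 3, below the 26.7 to 30.5 TPM of the PBS tumours. With length and GC trends removed, Eloc was at 0.26 and Mpc2 at 0.83, neither called in a fit that called 2 of 22056 genes. None of 12 other isozymes and transporters, 3 gluconeogenic, 7 pentose phosphate and 8 glycogen genes was called, with medians of 0.46, -0.79, -0.32 and -0.36. Among isozymes the most abundant were Adpgk, the ADP-dependent glucokinase, at means of 113 and 106 CPM in PBS and PV-10 tumours, and Eno3, the muscle enolase, at 94.5 and 179 CPM. The gluconeogenic genes Pck2 and G6pc3 were at 34.7 and 28.6 CPM in PBS and 19.03 and 16.5 CPM in PV-10 tumours. The pentose phosphate genes Tkt, transketolase, and G6pdx, which encodes its first enzyme, were at 271 and 112 CPM in PBS and 175 and 63.2 CPM in PV-10 tumours. In glycogen metabolism Pgm2 was at 49.7 and 39.9 CPM and Ugp2 at 28.5 and 46.3 CPM. With PV-10 tumour 3 left out, edgeR called Eno3 and Ugp2 higher and Pck2, G6pc3, Tkt and G6pdx lower. That fit called 25% of all genes tested higher and 16.4% lower. By list it called 6 higher and 1 lower of 14 isozymes and transporters, and 2 higher and 2 lower of 8 glycogen genes. It called 1 higher and 2 lower of 3 gluconeogenic genes, and 1 higher and 3 lower of 7 pentose phosphate genes.

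The members' log2 changes tended to be lower at greater transcript length and at higher GC percent. Over the 33 members, the log2 change correlated with log2 length of the longest annotated transcript at a Pearson r of -0.52 and a Spearman rho of -0.49. The Pearson r with the GC percent of that transcript was -0.45, against -0.14 over all genes tested. These are descriptions across genes that share the same 6 libraries. The 17 shorter members (927 to 3195 bases) had a median log2 change of -0.31 and held 6 of the 7 positive values, and the 16 longer members (3260 to 8681 bases) had a median of -0.83. The 14885 genes with a mean of at least 1 CPM showed a like but weaker relation to log2 length (Pearson r -0.25, Spearman rho -0.35). Those up to 1000 bases had a median of 1.12 and those over 7000 bases one of -0.73. Beside the median of expressed genes in the same length class, 26 of 33 members were lower, with a median distance of -0.50, and 13 of 16 enzymes were lower, with a median distance of -0.58.

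With length and GC trends removed, 30 of 33 members, and 16 of 16 enzymes, had a negative log2 change and 0 were called, where 2 of 22056 genes were called in all. The medians were then -0.95 for enzymes and -0.83 for HIF targets, beside -0.30 over all genes tested. Hk2 stayed at -1.37, Vegfa was at -1.47 and Slc2a1 at -1.34, while Pgk1 moved from 0.30 to -0.49. The removal moved the members' neighbours in length downwards as well: expressed genes of 1000 to 1500 bases went from a median of 0.46 to -0.20, and those of 3000 to 4000 bases from -0.21 to -0.70. After removal every length class above 1000 bases had a median below 0, so a negative value on this scale is not particular to the members.

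**Figure D5:**
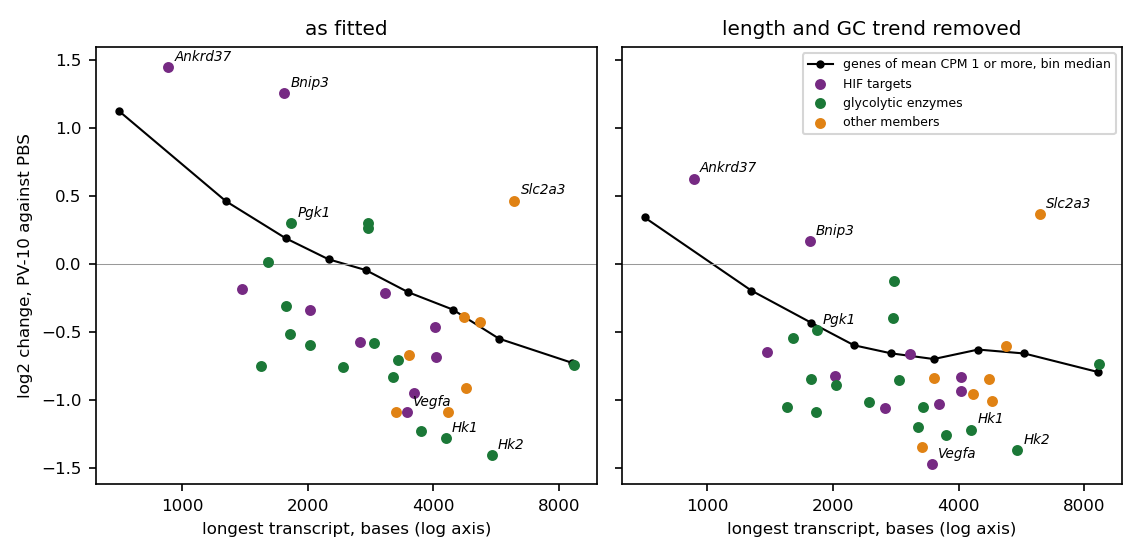
The x axis is the length of the longest transcript (log axis) and the y axis the log2 change, as fitted (left) and with each library's length and GC trend removed (right); points are members and the line joins class medians of expressed genes. On the left the line runs from 1.12 to -0.73, Ankrd37 and Bnip3 lie above it at short lengths, and most enzymes lie below it on both sides.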

How the data were processed

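Per the labels' protocols, RNA was DNase-treated and made into strand-specific libraries, adapters were removed with cutadapt 1.8.1, reads were aligned to mm10 with STAR 2.7.7a and genes were estimated with RSEM 1.3.0 on Gencode release 21 for mouse. The deposited count table holds expected counts, whole numbers and not normalized. The deposited TPM table holds length-scaled abundance with the same total in every tumour. Columns were matched to tumours by library name. Genes were tested with edgeR 4.0.16 (R 4.3.3, quasi-likelihood, robust, default expression filter, TMM, Benjamini-Hochberg over all genes), and DESeq2 1.42.0, the authors' tool per the labels' protocols, was an alternative, as was limma 3.58.1 on log2(TPM + 1) or log2(TPM + 0.1). Standard errors were obtained by dividing the absolute log2 change by the root of the F statistic. A floor of 3 counts corresponds to 0.029 to 0.0821 CPM and, like any such limit here, covers counting error only. On simulated counts, 200 genes were given a log2 change of 2 or 4 in either direction, and 20023 genes passed the filter. Among genes that passed, the test recovered 43.5% of 85 with a change of 2 and 58.6% of 87 with a change of 4. It called 6 unchanged genes. Changed genes that the filter removed are not in these percentages. Per tumour values use log2(CPM + 0.5). Length and GC trends were removed with splines of 5 degrees of freedom per library, on the longest Gencode transcript. The members and the gene lists were chosen with earlier results of these data known. The rule for named genes was all members and, from each other list described, up to 4 called genes or the 2 most abundant where none was called. Genes named outside it, chosen after their values were seen, are Epcam, Krt5, Krt14, Cdh1, Pvalb, Hk3, Hkdc1, Ldhb, Pecam1, Cdh5, Kdr, Fam162a, Bnip3l, Plod1 and Vldlr. An alternative chosen after seeing the data rescaled TPM to protein-coding genes. Of the other hypoxia targets, 1 gene is counted but not reported here by name or plotted.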

Additional observations from a re-analysis of the deposited data

How the results depend on the processing

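The median over the members was negative in each of the 18 settings, and the counts of calls depended on the setting. Against 1122 genes and 0 members called with all tumours, edgeR called 2537 genes and 1 member with DESeq2 size factors, 2441 and 2 with library size alone, 4664 and 10 with no low-count filter, 2705 and 2 with a mean count of at least 50, and 2 and 0 with length and GC trends removed. DESeq2 called 7945 genes and 7 members, and limma called 2917 and 9 on log2(TPM + 1), 3175 and 10 on log2(TPM + 0.1), and 2788 and 9 on TPM over protein-coding genes. PV-10 tumour 3 alone against PBS gave 18 and 0, with the spread of the lone tumour assumed to be that of the PBS group. With 1 tumour left out, 1 to 11399 genes and 0 to 22 members were called, and the higher values came without PV-10 tumour 3. The labels tie same-numbered tumours by nothing but the number. Their deviations from the group means correlated at -0.049, 0.071 and 0.072, and those of differently numbered tumours at -0.113 to 0.080. Deviations of 3 tumours sum to 0 in each group, so these values cannot decide whether tumours were paired. The fit with a replicate block called 2872 genes and 5 members (Hk1, Hk2, Vegfa, Bnip3 and Ankrd37). The causes of these differences were not tested.

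The enzyme median was -1.40 on log2(TPM + 1) and log2(TPM + 0.1), -0.99 over protein-coding TPM and -0.10 for PV-10 tumour 3 alone, and -0.94 to -0.40 with 1 tumour left out. The HIF target median was -1.13 and -1.22 on log2(TPM + 1) and log2(TPM + 0.1), -0.80 over protein-coding TPM, and -0.95 to -0.13 with 1 tumour left out. Their difference was -0.13 with length and GC trends removed and -0.52 to 0.0075 with 1 tumour left out. Scaling moved the median of all genes from 0.30 with TMM to 0.43 with DESeq2 size factors, 0.21 with library size and -0.21 on log2(TPM + 1). The filter moved it as well, to 0.06 with a mean count of at least 50 and 1.63 with no low-count filter, and DESeq2 gave 1.84. Of the 33 members, 16 were negative and 2 positive in every one of the 18 settings, and 15 took both signs.

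Some log2 changes reversed. Those of Tpi1, Pgk1, Aldoc and Eno2 became -0.54, -0.49, -0.40 and -0.13 with trends removed. On log2(TPM + 1) Tpi1, Pgk1, Aldoc, Eno2 and Slc2a3 were at -0.77, -0.50, -0.15, -0.26 and -0.17, and on log2(TPM + 0.1) at -0.78, -0.51, -0.16, -0.46 and -0.41. Over protein-coding TPM, Tpi1, Pgk1, Eno2 and Slc2a3 were at -0.37, -0.10, -0.0909 and -0.0328. Tpi1 was at -0.0754 with library size and -0.0646 with no filter. PV-10 tumour 3 alone gave Pfkm 0.0651, Aldoc -0.11, Pgam1 0.0819, Eno2 -0.56, Ldha 0.0436, Pdk1 0.14, Pfkfb3 0.0680, Adm 0.74, Ndrg1 0.0645, Egln3 0.12, P4ha1 0.11 and Slc2a3 -0.0600. With 1 tumour left out, Tpi1 ranged from -0.17 to 0.17, Aldoc from -0.28 to 1.24, Eno2 from -0.21 to 0.73, Adm from -1.05 to 0.90 and Car9 from -0.84 to 0.10.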
